A study of Rattus norvegicus with 15 samples.

Results

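Water deprivation was compared directly with food deprivation in the subfornical organ of the rat. The comparison took the 5 arrays of water-deprived animals and the 5 arrays of food-deprived animals from the 15 arrays of the series, and left out the 5 arrays of controls. The members of the comparison were therefore 10 arrays, and all probe sets other than the array's own control probe sets were considered. Beside it stands a comparison of 7 arrays of like RNA quality, water arrays 1 and 2 against food arrays 1 to 5, which was known from earlier results of these data. Differences are water minus food throughout, so a positive value means a higher signal in water deprivation.

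The subfornical organ is a small structure on the wall of the third ventricle that lacks a blood-brain barrier. Its neurons sense angiotensin II, sodium and osmolality in the blood and drive drinking and vasopressin release through projections to the hypothalamus. They also carry receptors for hormones of energy balance such as leptin, ghrelin and amylin, so that thirst and hunger signals meet in the same tissue. The organ hangs beside the choroid plexus and is lined by ependymal cells, and both are easily taken with it in dissection.

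Both groups were male Sprague Dawley rats of 10 to 12 weeks. Each array held RNA pooled from the subfornical organs of 5 animals, which gives 25 animals per group. The sample labels give food deprivation of 48 hours for the food group, whereas how long water was withheld is not given in the sources used here. A design text for the series can be read as a food denial of 48 hours in every condition, so the feeding state of the water-deprived animals and of the controls is uncertain. Nothing in the labels ties a water array to a food array, and pooling hides the spread between single animals.

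The arrays were not alike in RNA quality. The log2 ratio of the 5′ to the 3′ signal of the Actb and Gapdh control probe sets, which falls when RNA is degraded or copied short, lay between -0.86 and -0.71 on the food arrays. It was -0.78 and -0.72 on water arrays 1 and 2, and -2.81, -1.28 and -1.37 on water arrays 3, 4 and 5. Correlations across probe sets were 0.953 to 0.983 among the 7 arrays of like quality and 0.893 to 0.963 between those and water arrays 3 to 5. All arrays were scaled to a common trimmed mean near 100.02, but the lower quartile of the signal was 12.3 to 13.8 on water arrays 3 to 5 against 15.7 to 17.3 on the other 7. RNA quality is therefore split within the water group, and results are given with and without water arrays 3 to 5.

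Values are log2(signal + 16), and a probe set was tested where its mean over the 10 arrays passed 5.14 on that scale, the 30th percentile over probe sets. This left 21729 probe sets, tested with limma and Benjamini-Hochberg adjustment at a threshold of 0.05, and 11533 named genes represented by their brightest probe set. Over all 10 arrays limma called 0 probe sets higher (0.0%) and 0 lower (0.0%), and the smallest adjusted p was 0.0631. At an unadjusted p under 0.05, 1113 probe sets were higher and 2219 lower. Among genes, 511 (4.43%) lay higher and 934 (8.1%) lower at that unadjusted level. The 5 water arrays all lay above the 5 food arrays for 152 genes (1.32%) and all below for 214 (1.86%), while 44.8% of genes were above 0 and 55.2% below. The count of 0 depended on which arrays entered. Without water array 1 limma called 156 probe sets higher and 294 lower, without food array 5 it called 23 and 1, and without water array 3 it called 1 and 0.

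Among the 7 arrays of like quality, limma called 32 probe sets higher (0.147%) and 54 lower (0.249%) in water deprivation. They represent 19 genes that rose (0.165%) and 41 that fell (0.356%) of the 11533 tested. With 2 water arrays, groups that do not overlap are common: 10.8% of genes were higher on both water arrays than on every food array, and 13.5% were lower. At an unadjusted p under 0.05, 8.84% of genes were higher and 11.3% lower, with 46.2% of all genes above 0 and 53.8% below. Every array bore on the count. Without food array 3 limma called 0 probe sets higher and 1 lower, and without water array 2 also 0 and 1. The count was 14 and 17 without food array 1, 17 and 16 without food array 2, 26 and 29 without food array 4, 50 and 67 without food array 5, and 50 and 109 without water array 1. The probe set left without food array 3 or without water array 2 was that of Crygs. Each call described for the other genes below is therefore lost without either of those arrays.

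The calls split evenly when set beside water arrays 3 to 5. Of the 86 probe sets called on the 7 arrays, 43 had the same sign in the mean of water arrays 3 to 5 minus food and 43 had the opposite sign. Of the genes that rose, 11 had the same sign there and 8 the opposite one, and of the genes that fell, 19 and 22. For 10 of the 86 probe sets the 5 water and 5 food arrays did not overlap. All 86 already had no overlap on the 7 arrays, so only water arrays 3 to 5 could bring one. Over all tested genes, 1.32% were higher and 1.86% lower with no overlap over 10 arrays. The 4 higher ones were those of Bdnf, Vgf, Cartpt and Spats2l. The 6 lower ones were those of Crygs, Sart1 and Id4 and 3 probe sets without a gene name. Both comparisons use the same food arrays and share water arrays 1 and 2, so their values are given side by side and are not separate evidence.

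**Figure D1:**
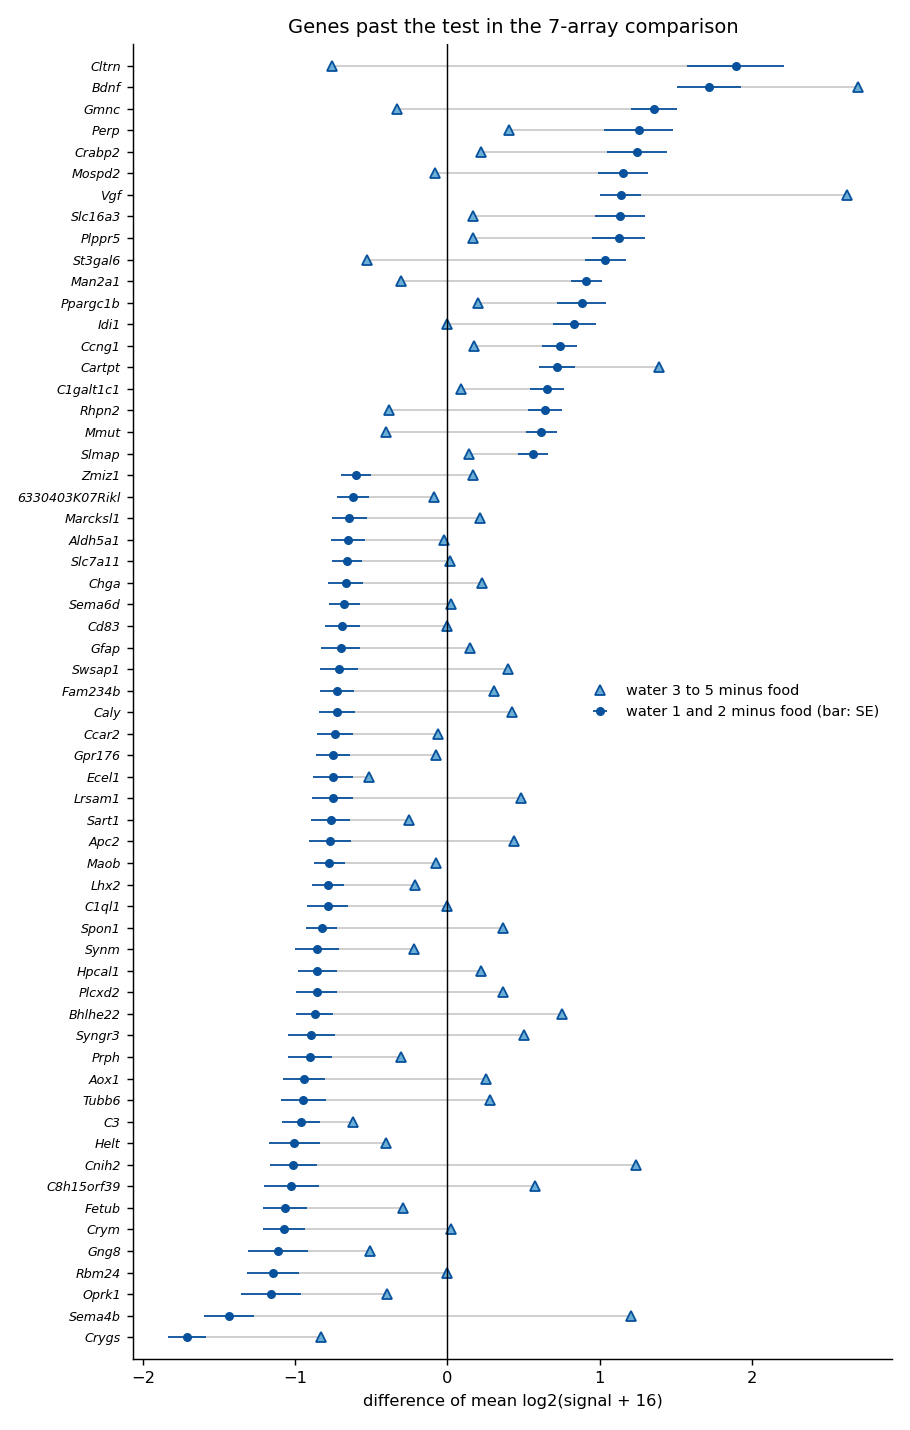
Difference of mean log2(signal + 16), water minus food, for the 60 genes that passed the limma test on the 7 arrays of like quality (circles, with bars of 1 standard error), and for water arrays 3 to 5 minus food (triangles, not tested). Bdnf, Vgf and Cartpt lie to the right with both symbols and Crygs to the left with both, while Cltrn and Sema4b have symbols on opposite sides of 0.

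Among higher genes stood a neurotrophin and the precursors of secreted neuropeptides: Bdnf, Vgf and Cartpt rose on the 7 arrays, and every water array lay above every food array. Bdnf encodes brain-derived neurotrophic factor, whose transcription follows neuronal activity and which reduces feeding in the hypothalamus. Its water arrays 1 to 5 read 6.87, 6.74, 8.59, 7.10 and 7.65. Its food arrays 1 to 5 read 4.71, 4.91, 5.10, 5.58 and 5.12. The lowest water array stood more than 1 log2 unit above the highest food array, and water array 3 was the highest. The summed signal of 10 hippocampal marker genes was 4749 on water array 3. It was 979 to 1279 on the other water arrays and 829 to 1088 on the food arrays. The part of neighbouring tissue in the Bdnf value of water array 3 was not tested. The difference was 1.72 (SE 0.21, adjusted p = 0.0213) on the 7 arrays and 2.31 (SE 0.31, adjusted p = 0.0631) on all 10. Of the 5 food arrays 4 read below the filter value of 5.14, so Bdnf passed the filter through its water arrays, and no fold is given against so dim a level. The other Bdnf probe set, which is dimmer, gave 0.13 and 0.12, so the 2 probe sets of this gene disagree.

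Vgf encodes a granin-like precursor that neurons cut into several secreted peptides and that is induced by neurotrophins. Its water arrays 1 to 5 read 8.04, 8.12, 10.06, 9.42 and 9.22. Its food arrays 1 to 5 read 7.12, 6.73, 7.14, 6.86 and 6.86. The food arrays lay within a narrow band, and water arrays 1 and 2 stood between that band and water arrays 3 to 5. The summed signal of 23 neuronal marker genes was also highest on water array 3, at 23683. It was 10268 to 15827 on the other water arrays and 12790 to 18140 on the food arrays. The part of neighbouring tissue in the Vgf values was not tested. Vgf rose by 1.14 (SE 0.13, 2.20-fold, adjusted p = 0.0188) on the 7 arrays and differed by 2.03 (SE 0.33, 4.08-fold, adjusted p = 0.0836) on all 10. Its call held in 5 of the 7 fits that leave out 1 array, as did that of Bdnf.

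Cartpt encodes the precursor of CART, a peptide that lowers food intake and falls in the hypothalamus of fasted animals. Its water arrays read 7.36, 7.50, 8.36, 8.38 and 7.56, against 6.75, 6.76, 6.50, 6.82 and 6.71 on the food arrays. All 5 water arrays were higher than the highest food array. The summed signal of 9 hypothalamic peptide genes was 463, 394, 3189, 3695 and 1065 on water arrays 1 to 5. It was 338 to 350 on the food arrays. The part of neighbouring tissue in the Cartpt values was not tested. Cartpt rose by 0.72 (SE 0.12, 1.65-fold, adjusted p = 0.0381) on the 7 arrays and differed by 1.12 (SE 0.20, 2.18-fold, adjusted p = 0.0877) on all 10. Its call on the 7 arrays was lost in each of the 7 fits that leave out 1 array, with adjusted p values from 0.0508 to 0.364, while the difference stayed between 0.65 and 0.79.

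The promoters of Vgf and Cartpt are shown because both hold a full cyclic AMP response element, TGACGTCA, the site bound by CREB and by the product of Crem. The sequences are the 160 bases before the annotated start in RefSeq (build GRCr8), read 5′ to 3′ on the minus strand, on which both genes lie, with the element in capitals. The motif was chosen after the values of these genes were seen.
Vgf, chr12:25277021-25277180: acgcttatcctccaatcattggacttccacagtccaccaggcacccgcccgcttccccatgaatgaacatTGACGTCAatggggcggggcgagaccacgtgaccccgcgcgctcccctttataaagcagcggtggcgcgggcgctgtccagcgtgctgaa
Cartpt, chr2:32991236-32991395: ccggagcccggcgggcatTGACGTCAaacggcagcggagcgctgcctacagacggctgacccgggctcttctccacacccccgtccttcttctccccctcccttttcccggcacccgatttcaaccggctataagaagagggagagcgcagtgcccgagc
The element begins 90 bases before the start of Vgf and 142 bases before that of Cartpt. It is its own reverse complement, so a single search covers both strands. In windows from 250 bases before to 50 bases after a start, it occurs in 1.83% of 33469 RefSeq promoters, and in at least 1 promoter of 3.21% of the 9567 tested genes that have one. Of the 3 windows of Crem 2 hold it. It was found in 0 of the 6 windows of Bdnf and in 0 of the 1 window each of Grp, Bpifa1, Casr and Avp, which also lay higher on all 5 water arrays. A match is a description of the letters in the window and says nothing of binding in these samples.

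Grp, Bpifa1 and Crem lay higher on all 5 water arrays than on any food array without passing the adjusted test. Grp encodes gastrin-releasing peptide, a bombesin-like peptide that suppresses feeding. Its water arrays read 5.78, 5.80, 6.04, 5.78 and 5.40, against 5.07, 4.84, 4.84, 4.46 and 4.14 on the food arrays. The difference was 1.12 (SE 0.24, adjusted p = 0.0764) on the 7 arrays and 1.09 (SE 0.18, adjusted p = 0.0836) on all 10, so it was about the same with and without water arrays 3 to 5. All 5 food arrays read below the filter value of 5.14 for Grp, so its food level is near the dim end of the signal.

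Bpifa1 encodes a secreted lipid-binding protein of mucosal surfaces. Its water arrays read 6.04, 6.37, 6.43, 6.21 and 6.29, and its food arrays 5.25, 5.40, 5.61, 5.26 and 5.11. The groups did not overlap, and the 5 water arrays lay close together. The difference was 0.88 (SE 0.17, adjusted p = 0.0630) on the 7 arrays and 0.95 (SE 0.13, adjusted p = 0.0631) on all 10.

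The side of the threshold on which Bpifa1 and Bdnf fell over 10 arrays depended on the setting. With quantile normalization each had an adjusted p of 0.0388, and with median centring 0.0470. Over 11 alternatives that keep every array Bpifa1 passed in 7, with adjusted p values from 0.00921 to 0.0782. Bdnf passed in 7 of 12, from 2.65e-05 to 0.0951, and Vgf in 4 of 12, from 0.00261 to 0.0951.

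Crem encodes a modulator of cyclic AMP-dependent transcription, including the inducible repressor ICER. Its brightest probe set read 7.80, 7.72, 7.62, 7.64 and 7.80 on the water arrays and 7.20, 7.20, 7.34, 7.29 and 7.33 on the food arrays. Both groups were tight and did not overlap. The difference was 0.49 (SE 0.10, adjusted p = 0.0661) on the 7 arrays and 0.44 (SE 0.09, adjusted p = 0.0982) on all 10. Of the 5 other Crem probe sets tested, differences on all 10 arrays ran from -0.21 to 0.53.

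**Figure D2:**
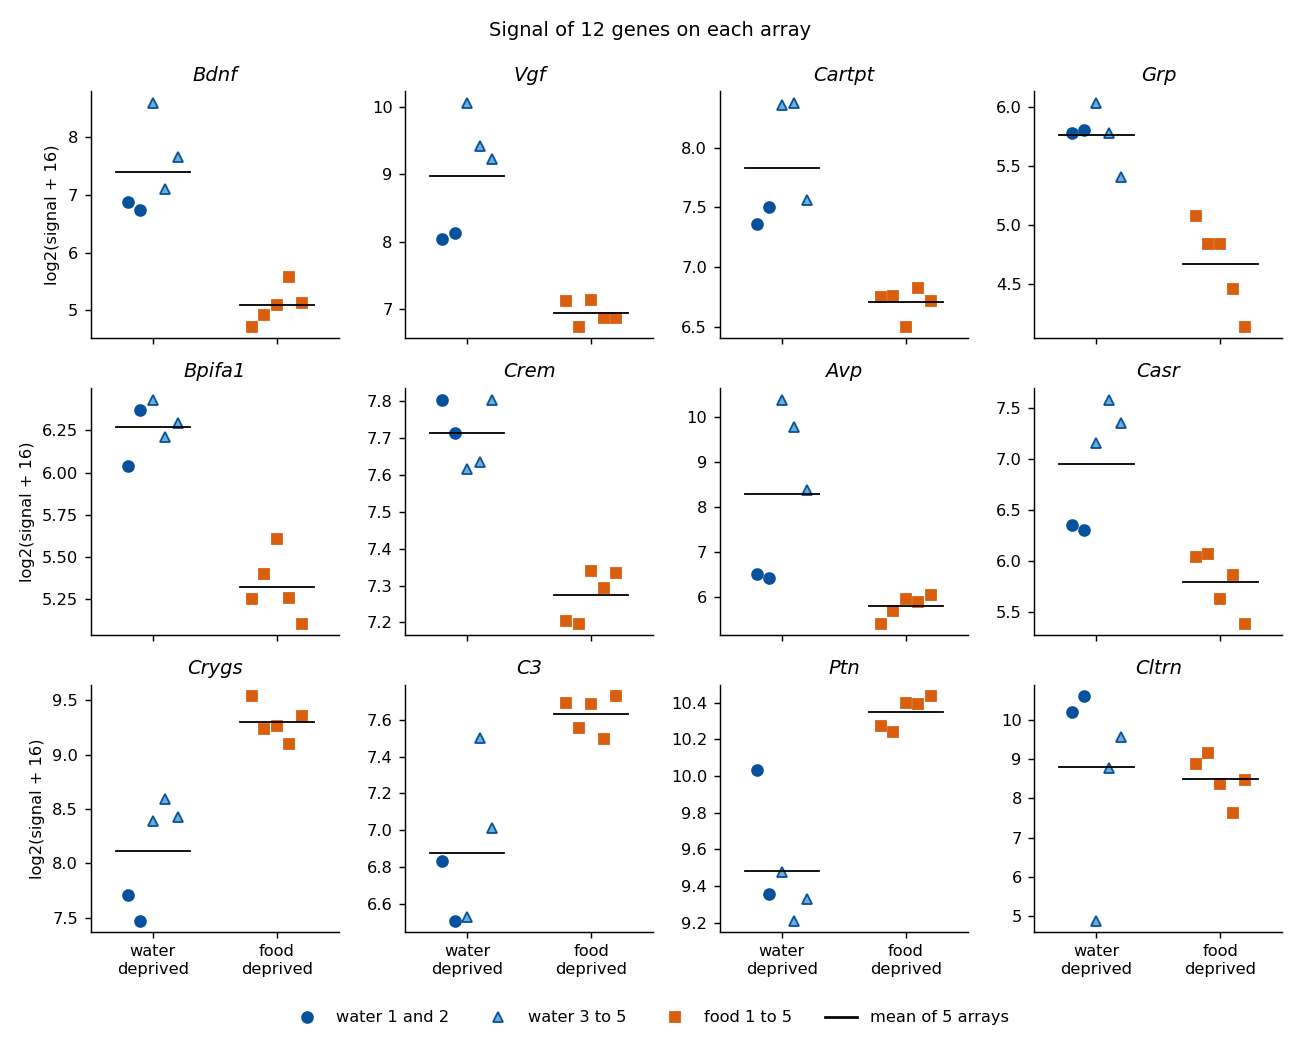
Log2(signal + 16) of 12 genes on each array, with water arrays 1 and 2 as circles, water arrays 3 to 5 as triangles and food arrays as squares; lines are means of 5 arrays. Water arrays lie above all food arrays for Bdnf, Vgf, Cartpt, Grp, Bpifa1, Crem, Avp and Casr and below them for Crygs and Ptn, while water array 4 overlaps the food arrays for C3 and the groups overlap widely for Cltrn.

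Immediate early genes, which neurons switch on within minutes of activation, showed no common direction. Of 23 tested, 14 were above 0 on the 7 arrays (median 0.06, against -0.022 for all genes) and 11 on all 10 (median -0.0077), and 0 passed the test in either comparison. Fos, the usual marker of neuronal activation, read 6.46, 6.24, 7.18, 6.85 and 6.68 on the water arrays and 5.85, 5.93, 6.14, 6.08 and 6.11 on the food arrays. The groups did not overlap, yet the difference of 0.32 (SE 0.14, adjusted p = 0.246) on the 7 arrays and 0.66 (SE 0.16, adjusted p = 0.130) on all 10 missed the threshold. Dusp6, a phosphatase induced by ERK signalling, was at 0.42 (SE 0.10) on the 7 arrays and 0.25 (SE 0.11) on all 10. Of its 2 other tested probe sets, one gave 0.69 (adjusted p = 0.0794) and 0.65 (adjusted p = 0.0927), with no overlap over 10 arrays, and the other 0.31 and -0.23. Dusp1, a phosphatase induced by stress and activity, was at 0.03 (SE 0.15) and 0.66 (SE 0.24), so it lay higher on water arrays 3 to 5 and not on water arrays 1 and 2. Ier5 was at -0.25 (SE 0.09) and -0.15 (SE 0.12).

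Vasopressin and oxytocin transcripts differed most on water arrays 3 to 5. Avp encodes vasopressin, the antidiuretic hormone of magnocellular hypothalamic neurons. Its water arrays 1 to 5 read 6.52, 6.42, 10.38, 9.77 and 8.37, against 5.42, 5.70, 5.95, 5.91 and 6.04 on the food arrays. Water arrays 3 to 5 stood well above water arrays 1 and 2, which lay just above the food arrays. The difference was 0.67 (SE 0.17, adjusted p = 0.0979) on the 7 arrays and 2.49 (SE 0.67, adjusted p = 0.151) on all 10. Without water array 1 the 10-array comparison called Avp, with an adjusted p of 0.0455, and leaving out other arrays gave values up to 0.343.

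Oxt, the oxytocin precursor, was at 0.56 (SE 0.26) on the 7 arrays and 2.37 (SE 0.71) on all 10, and the leave-one-out differences on the 7 arrays ran from -0.013 to 1.13. Pmch, the melanin-concentrating hormone precursor of the lateral hypothalamus, was at 0.21 (SE 0.35) and 1.63 (SE 0.55). Among the 9 hypothalamic peptide genes with a probe set, the summed signal was 338 to 350 on the food arrays, 394 and 463 on water arrays 1 and 2, and 1065 to 3695 on water arrays 3 to 5. Avp, Oxt and Pmch are made in hypothalamic nuclei, and their part from neighbouring tissue in the pools was not tested. The controls, whose 5′/3′ ratios of -1.67 to -1.24 span those of water arrays 4 and 5, read 8.03 to 10.46 for Avp and 8.73 to 10.89 for Oxt.

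Genes through which the organ senses angiotensin, sodium and natriuretic peptides gave mostly small differences. Of 20 tested members of this thirst and salt list, 7 were above 0 on the 7 arrays (median -0.17) and 11 on all 10 (median 0.06, from -0.023 to 0.29 across 8 processing settings), and 0 passed. Casr encodes the calcium-sensing receptor, a modulator of neurons in this organ. Its water arrays read 6.35, 6.31, 7.16, 7.59 and 7.36, against 6.03, 6.07, 5.62, 5.86 and 5.38 on the food arrays. The groups did not overlap, and water arrays 3 to 5 were the highest. The difference was 0.53 (SE 0.19, adjusted p = 0.180) on the 7 arrays and 1.16 (SE 0.25, adjusted p = 0.105) on all 10.

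Agtr1a, the angiotensin II receptor through which the organ evokes thirst, was at -0.048 (SE 0.12) on the 7 arrays and 0.68 (SE 0.26) on all 10. Calcr, the calcitonin receptor that forms the amylin receptor with RAMP proteins, was at 0.11 (SE 0.15) and 0.67 (SE 0.23). Through these probe sets both were near 0 among arrays of like quality and higher on water arrays 3 to 5. The other tested probe set of Agtr1a gave 0.098 and 0.089, and that of Calcr -0.043 and -0.37, so the higher values on all 10 arrays were not shared between probe sets. Npr1, the receptor of atrial natriuretic peptide, was at -0.23 (SE 0.14) and 0.38 (SE 0.23), and Agt, the angiotensin precursor made by astrocytes, at -0.18 (SE 0.18) and 0.29 (SE 0.22). Scn7a, the sodium-sensing channel of glial cells in this organ, was at -0.66 (SE 0.21, adjusted p = 0.152) on the 7 arrays, where both water arrays lay below all food arrays, and at -0.18 (SE 0.23) on all 10.

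The sodium pump and its FXYD regulators were a separate list. Fxyd2, which tunes the affinity of the sodium pump, read 6.24, 6.01, 7.17, 7.22 and 7.03 on the water arrays and 5.71, 5.27, 5.50, 5.76 and 5.74 on the food arrays. Its groups did not overlap, with a difference of 0.53 (SE 0.17, adjusted p = 0.144) on the 7 arrays and 1.14 (SE 0.24, adjusted p = 0.0999) on all 10. Fxyd6, another member of that family, was at -0.64 (SE 0.15, adjusted p = 0.0837) on the 7 arrays and -0.30 (SE 0.21) on all 10. Of 9 sodium pump and FXYD genes, 4 were above 0 on the 7 arrays and 5 on all 10. Of 15 genes of osmolyte transport and the tonicity factor NFAT5, 7 and 6 were above 0, and 0 of either list passed.

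Of the 32 tested genes of appetite and energy signals, 2 rose on the 7 arrays, Bdnf and Cartpt, where 0.165% of all genes rose. Bdnf passed the filter through its water arrays, so the count is not read as a result about the list. The list was drawn up with earlier results of these data known. Of 32 tested members, 19 were above 0 on the 7 arrays (median 0.07) and 16 on all 10 (median -0.0079), and 0 fell. Lepr, the leptin receptor, lay above all food arrays on water arrays 1 and 2, at 6.58 and 6.92 against 5.51 to 6.19. Its difference of 0.83 (SE 0.19, adjusted p = 0.0801) on the 7 arrays was 0.55 (SE 0.26) on all 10, where water array 3 read 5.42, below every food array. Its other tested probe set gave 0.42 and -0.13. Galr2, a galanin receptor, was at -0.65 (SE 0.27) and -0.78 (SE 0.20, adjusted p = 0.140). Its water arrays ran from 5.08 to 5.57 and its food arrays from 5.46 to 6.49, near the filter value, and its other tested probe set gave -0.26 and -0.14.

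Other genes of energy balance also missed the threshold, with values of both signs. Npy, the orexigenic neuropeptide Y, was at -0.13 (SE 0.12) on the 7 arrays and 0.013 (SE 0.12) on all 10, and Ghsr, the ghrelin receptor, at -0.16 (SE 0.18) and -0.16 (SE 0.13). Sstr2, a somatostatin receptor, was at -0.099 (SE 0.17) and -0.22 (SE 0.13). Adipor2, an adiponectin receptor, was at 0.21 (SE 0.12) and -0.59 (SE 0.33), with water arrays 3 to 5 at 5.34, 6.58 and 6.38 against 6.98 to 7.35 on the food arrays. Its other tested probe set gave 0.49 and 0.06, so that low value on all 10 arrays was not shared. Stat3, the transcription factor downstream of the leptin receptor, was at 0.67 (SE 0.24, adjusted p = 0.187) on the 7 arrays and 1.07 (SE 0.22, adjusted p = 0.0999) on all 10. Its groups overlapped through food array 5, at 7.35, and water array 1, at 7.32, and its other tested probe set gave -0.22 and 0.34.

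Aplnr, the receptor of the peptide apelin, which acts on vasopressin release and drinking, lay lower on every water array. Its water arrays read 5.63, 5.17, 4.51, 5.44 and 5.33, against 6.42, 6.08, 6.22, 6.01 and 6.01 on the food arrays. The difference was -0.75 (SE 0.17, adjusted p = 0.0801) on the 7 arrays and -0.93 (SE 0.19, adjusted p = 0.0999) on all 10. The gene of its ligand, Apln, was at -0.14 (SE 0.23) and -0.29 (SE 0.18).

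Among the genes that fell, Crygs had the smallest adjusted p and the largest difference on the 7 arrays. It encodes gamma-crystallin S, a structural protein best known from the lens. Its water arrays 1 to 5 read 7.70, 7.47, 8.39, 8.59 and 8.43, against 9.54, 9.24, 9.27, 9.10 and 9.35 on the food arrays. All water arrays lay below all food arrays, and water arrays 1 and 2 were the lowest. It fell by 1.71 on the log2 scale (SE 0.13, 3.27-fold lower, adjusted p = 0.00106) on the 7 arrays, and its call held in all 7 leave-one-out fits with adjusted p values from 0.000779 to 0.0364. On all 10 arrays the difference was -1.18 (SE 0.20, adjusted p = 0.0844). In the controls Crygs ranged from 7.11 to 10.46, wider than in either group compared here.

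C3, the central complement component, read 6.83, 6.51, 6.53, 7.50 and 7.01 on the water arrays and 7.69, 7.55, 7.69, 7.49 and 7.73 on the food arrays. Only water array 4 reached the food range. C3 fell by 0.96 (SE 0.12, adjusted p = 0.0213) on the 7 arrays and differed by -0.75 (SE 0.17, adjusted p = 0.115) on all 10. Oprk1, the kappa opioid receptor gene, fell by 1.16 (SE 0.20, adjusted p = 0.0424) on the 7 arrays and stood at -0.70 (SE 0.22) on all 10. Its 2 other probe sets gave 0.28 and -0.064 on the 7 arrays, so the gene's probe sets disagree.

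Gng8, a G protein gamma subunit, fell by 1.11 (SE 0.20, adjusted p = 0.0494) on the 7 arrays and was at -0.75 (SE 0.19) on all 10. Fetub, a secreted protease inhibitor of the cystatin family, fell by 1.07 (SE 0.14, adjusted p = 0.0227) and was at -0.60 (SE 0.19). Helt, a transcription factor of GABAergic neurons of the midbrain, fell by 1.01 (SE 0.17, adjusted p = 0.0381) and was at -0.65 (SE 0.18). In water arrays 3 to 5 minus food these 3 genes were at -0.51, -0.29 and -0.41, the same side of 0. Chosen after their values were seen, Prph (peripherin, an intermediate filament of neurons; -0.90), Lhx2 (a LIM homeobox factor; -0.79), Sart1 (a splicing factor; -0.77) and Ecel1 (a neuronal endopeptidase; -0.75) fell on the 7 arrays and kept the sign in water arrays 3 to 5.

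Several genes had no overlap between the 5 water and 5 food arrays. They were chosen after their values were seen, as the 10 genes in each direction with the smallest unadjusted p on all 10 arrays among those whose groups do not overlap. Bpifa1, Bdnf, Vgf, Grp, Cartpt, Crygs and Aplnr, described above, are among them. Of these, Bdnf, Vgf, Cartpt and Crygs passed the test on the 7 arrays, and no gene passed it on all 10. Ptn, the secreted growth factor pleiotrophin, read 10.04, 9.36, 9.48, 9.21 and 9.33 on the water arrays and 10.28, 10.24, 10.40, 10.39 and 10.43 on the food arrays. Water array 1 lay nearest to the food arrays, and without it the 10-array fit called Ptn, at -1.004 with an adjusted p of 0.00462, against values up to 0.247 without another array. With all 10 arrays the difference was -0.87 (SE 0.14, adjusted p = 0.0836), and on the 7 arrays -0.65 (SE 0.15, adjusted p = 0.0848), where leaving out 1 array gave values from -0.99 to -0.31.

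Efemp1, the extracellular matrix protein fibulin-3, was at -0.74 (SE 0.15) on the 7 arrays and -0.70 (SE 0.12) on all 10. Rprm, a cell cycle inhibitor, was at -0.69 (SE 0.15) and -0.63 (SE 0.12), and P2ry1, a purinergic receptor, at -0.63 (SE 0.14) and -0.70 (SE 0.14). Amph, the endocytic protein amphiphysin, was at -0.58 (SE 0.11) and -0.79 (SE 0.15). On the higher side, Arid5b, a chromatin-binding factor, was at 1.21 (SE 0.26) and 1.12 (SE 0.19), and Camsap2, which caps microtubule minus ends, at 0.40 (SE 0.09) and 0.50 (SE 0.09). The second Camsap2 probe set gave 0.25 and -0.22. Lpgat1, an acyltransferase of phospholipids, was at 0.80 (SE 0.16) and 0.82 (SE 0.15), with 0.18 and -0.076 from its other tested probe set. Ston2, an endocytic adaptor, was at 0.70 (SE 0.19) and 0.82 (SE 0.15), and Atp5mk, a small subunit of ATP synthase, at 0.42 (SE 0.10) and 0.42 (SE 0.08). The remaining 3, Ddx25, Epb41l2 and Tmem255a, lay lower, at -0.38, -0.55 and -0.45 on the 7 arrays and -0.53, -0.74 and -0.63 on all 10. Apart from Bdnf, Vgf, Cartpt and Crygs, none of these genes passed the adjusted test in either comparison.

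Some list members kept a small difference with little spread. Ccnd1, cyclin D1, read 7.53, 7.59, 7.58, 7.68 and 7.61 on the water arrays and between 7.89 and 8.07 on the 5 food arrays. The groups did not overlap, and the difference was -0.42 (SE 0.10, adjusted p = 0.0837) on the 7 arrays and -0.38 (SE 0.08, adjusted p = 0.0999) on all 10. Another tested Ccnd1 probe set gave -0.40 and -0.51, also with no overlap. A further one gave -0.19 and -0.16, with overlap in both comparisons. Angptl4, a lipase inhibitor induced by fasting and by glucocorticoids, read 6.39 to 6.53 on the water arrays and 6.74 to 6.90 on the food arrays. It was higher on every food array, at -0.39 (SE 0.11, adjusted p = 0.111) and -0.35 (SE 0.09, adjusted p = 0.130). Hcn2, a hyperpolarization-activated channel, was at -0.61 (SE 0.12, adjusted p = 0.0647) and -0.52 (SE 0.12, adjusted p = 0.120), again with no overlap.

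Of the 19 genes that rose on the 7 arrays, the 8 with the opposite sign on water arrays 3 to 5 include Cltrn, which had the largest increase. Markers of choroid plexus and ependyma were higher on the same arrays, water arrays 1 and 2. Their mean log2 level was 9.11 and 9.48 there and 8.15 to 9.06 on the food arrays. On the 7 arrays their part in these increases cannot be told apart from that of water deprivation. Cltrn, which encodes collectrin, an amino acid transporter partner, read 10.20 and 10.59 on water arrays 1 and 2, against 7.62 to 9.15 on the food arrays and 4.89, 8.78 and 9.56 on water arrays 3 to 5. It rose by 1.89 (SE 0.32, adjusted p = 0.0416) on the 7 arrays and stood at 0.30 (SE 0.87) on all 10. Gmnc, a factor that starts the multiciliated cell programme, rose by 1.36 (SE 0.15, adjusted p = 0.0171). Crabp2, a retinoic acid-binding protein, rose by 1.25 (SE 0.19, adjusted p = 0.0311) and Slc16a3, a lactate transporter, by 1.13 (SE 0.16, adjusted p = 0.0299). Mospd2 (1.15), a membrane contact site protein, rose too, as did St3gal6 (1.04) and Man2a1 (0.91), both enzymes of glycan processing in the Golgi. In water arrays 3 to 5 minus food, Cltrn, Gmnc, Mospd2, St3gal6 and Man2a1 were at -0.76, -0.33, -0.079, -0.53 and -0.30. Crabp2 and Slc16a3 kept their sign there, at 0.22 and 0.17. A dimmer probe set of Man2a1 gave 0.26 on the 7 arrays and did not pass.

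Of 19 tested markers of choroid plexus and ependyma, 18 were above 0 on the 7 arrays (median 0.70) where 46.2% of all genes were, and 9 were higher at an unadjusted p under 0.05, where 8.84% of all genes were, but 0 passed the adjusted test through their brightest probe set. Kcne2, a potassium channel subunit of the choroid plexus, was at 2.11 (SE 0.41, adjusted p = 0.0617). Its second tested probe set passed, at 1.79 (adjusted p = 0.0299). Kl, the klotho gene, was at 1.22 (SE 0.27), Otx2, a homeobox factor of the choroid plexus, at 1.16 (SE 0.24), and Ttr, the transthyretin gene, at 0.066. The summed signal of the 20 markers was 24435 and 32337 on water arrays 1 and 2, 13397 to 26751 on the food arrays and 5364 to 21097 on water arrays 3 to 5, with water array 3 the lowest. In bulk tissue more cells of a type and more RNA per cell cannot be told apart.

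With the mean level of that list as a covariate, chosen after seeing the data, 9 probe sets were higher and 20 lower on the 7 arrays. That level did not overlap between the water and food arrays, so the fit cannot separate it from water deprivation. Bdnf (2.18, adjusted p = 0.00142), Vgf (1.09, adjusted p = 0.0431), Cltrn (1.03, adjusted p = 0.0138), Gmnc, Mospd2, St3gal6 and Man2a1 passed in that fit, as did Crygs (-1.83, adjusted p = 0.000618), C3, Fetub and Helt. Cartpt (0.72, adjusted p = 0.110), Crabp2 (0.79, adjusted p = 0.0744) and Slc16a3 (1.03, adjusted p = 0.100) did not pass. Of the 86 probe sets called, 21 remained called, and all 86 kept their sign.

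**Figure D3:**
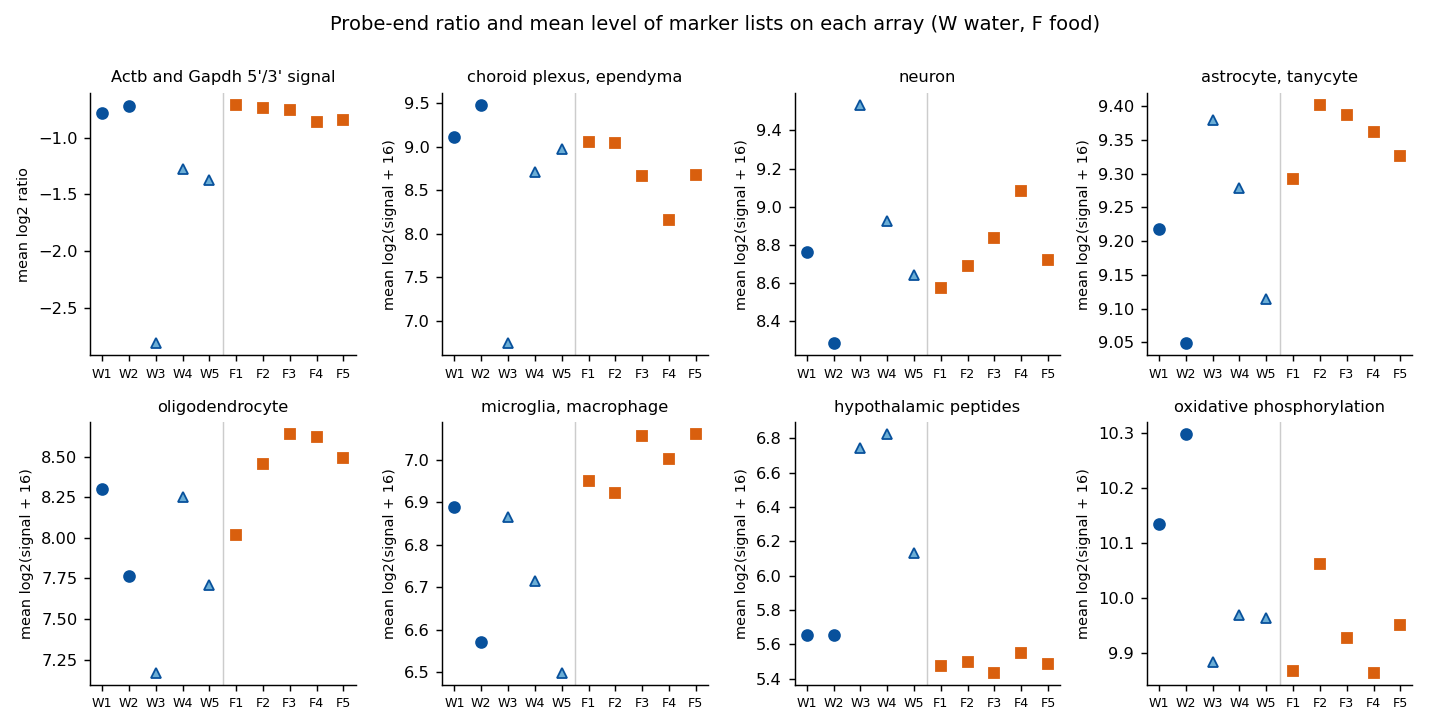
The first panel gives the mean log2 ratio of 5′ to 3′ signal of Actb and Gapdh on each array, and the others the mean log2(signal + 16) of a marker or gene list, for water arrays 1 to 5 and food arrays 1 to 5. Water array 3 has the lowest ratio and the lowest choroid plexus level, water arrays 3 to 5 have the highest hypothalamic peptide level, and all 5 water arrays lie below all food arrays for microglial markers.

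Other genes fell on the 7 arrays and stood above food in the mean of water arrays 3 to 5, beside the markers of neurons. Sema4b, a membrane semaphorin, fell by 1.43 (SE 0.16, adjusted p = 0.0171) on the 7 arrays and was at 1.21 in water arrays 3 to 5 minus food. Cnih2, an auxiliary subunit of AMPA receptors, fell by 1.01 (SE 0.16, adjusted p = 0.0299) and was at 1.24 there. Chga, the chromogranin A gene of dense-core vesicles, fell by 0.67 (SE 0.12, adjusted p = 0.0449) and was at 0.23. Crym, a thyroid hormone-binding protein of neurons, fell by 1.07 (SE 0.14, adjusted p = 0.0213) and was at 0.024. Its water arrays 3 to 5 read 9.43, 8.35 and 7.81 against 8.28 to 8.61 on the food arrays, so only water array 3 lay above food. Of 23 neuronal markers, 21 were below 0 on the 7 arrays (median -0.25) and 13 on all 10 (median -0.042, or 0.051 with each array centred on its median), and 0 passed. Their summed signal was 14774 and 10268 on water arrays 1 and 2, 12790 to 18140 on the food arrays and 13209 to 23683 on water arrays 3 to 5. Their part in the lower values of neuronal genes on the 7 arrays was not tested.

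The granin family had calls in both directions. Of 17 genes of granins and prohormone processing, 5 were above 0 on the 7 arrays (median -0.20), with Vgf the one that rose and Chga the one that fell. Over all genes 0.165% rose and 0.356% fell there. Pcsk1n, an inhibitor of prohormone convertase, was at -0.87 (SE 0.19, adjusted p = 0.0774) on the 7 arrays. Scg2, the secretogranin II gene, was at 0.22 (SE 0.10) on the 7 arrays and 0.45 (SE 0.11) on all 10, where its groups did not overlap. Of 29 glutamate and GABA receptor genes, 23 were below 0 on the 7 arrays (median -0.27), and of 39 voltage-gated channel genes 30 (median -0.20), with 0 passing in either list.

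Most glial markers lay below 0 in both comparisons, where 53.8% of all genes did so on the 7 arrays and 55.2% on all 10. Gfap was the one that passed, on the 7 arrays, where 0.356% of all genes fell. Of 20 oligodendrocyte markers, 19 were below 0 on the 7 arrays (median -0.46) and 19 on all 10 (median -0.65), and 0 passed. Mag, a myelin glycoprotein, was at -0.69 (SE 0.15, adjusted p = 0.0696) on the 7 arrays, and Olig1, a factor of the lineage, at -0.66 (SE 0.18, adjusted p = 0.103). The summed signal of the list was 16771 and 12184 on water arrays 1 and 2, 6389 to 14236 on water arrays 3 to 5, and 13880 to 20246 on the food arrays. Water array 1 lay within the food range, so the groups overlapped.

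Of 19 microglial and macrophage markers, 16 were below 0 on the 7 arrays (median -0.36) and 17 on all 10 (median -0.21), and 0 passed. The mean log2 level of that list was 6.50 to 6.89 on the 5 water arrays and 6.92 to 7.06 on the 5 food arrays, with no overlap. Their summed signal did overlap, at 3338 to 4542 on the water arrays and 4069 to 4676 on the food arrays. By the smallest unadjusted p on the 7 arrays, Csf1r, the receptor that microglia need to survive, was at -0.45 on the 7 arrays and -0.086 on all 10. Fcer1g, a signalling subunit of Fc receptors, was at -0.40 and -0.076, and Cd68, a lysosomal protein of macrophages, at -1.05 and -0.54. These 3 overlapped over 10 arrays, and in water arrays 3 to 5 minus food Csf1r and Fcer1g stood at 0.16 and 0.14. The 2 members without overlap were chosen after their values were seen: Cx3cr1, the fractalkine receptor, was at -0.59 and -0.57, and Laptm5, a lysosomal protein of leukocytes, at -0.36 and -0.60. Over all genes 1.86% lay lower with no overlap over 10 arrays. Of 18 astrocyte and tanycyte markers, 16 and 14 were below 0, and water array 3, at a mean log2 level of 9.38, lay within the food range of 9.29 to 9.40. Gfap, the astrocyte filament gene, fell by 0.70 (SE 0.13, adjusted p = 0.0495) on the 7 arrays, and was at -0.19 (SE 0.22) on all 10. Mlc1, a membrane protein of astrocyte endfeet, was at -0.57 (SE 0.12, adjusted p = 0.0660) and -0.52 (SE 0.12, adjusted p = 0.110), with no overlap over 10 arrays. Of 20 endothelial and mural markers, 14 were below 0 on the 7 arrays (median -0.081) and 15 on all 10 (median -0.17), with 0 passing.

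Genes of oxidative phosphorylation lay mostly above 0 on the 7 arrays, each by a small amount. Of 69 tested, 65 were above 0 (median 0.29, against -0.022 for all genes), 47 of them at an unadjusted p under 0.05 where 8.84% of all genes were, and 0 passed the adjusted test. Over all 10 arrays 59 were above 0 (median 0.13), and in water arrays 3 to 5 minus food the median was 0.0022. Sdhd, a subunit of complex II, was at 0.50 (SE 0.10, adjusted p = 0.0592) on the 7 arrays, with 0.60 from its second probe set, Uqcr10 of complex III at 0.53 (SE 0.12) and Ndufb5 of complex I at 0.47 (SE 0.10). Ndufb6 of complex I was at 0.50 (SE 0.11) on the 7 arrays and 0.44 (SE 0.09) on all 10, with no overlap over 10 arrays. The mean log2 level of the list was 10.13 and 10.30 on water arrays 1 and 2, 9.86 to 10.06 on the food arrays, and 9.88 to 9.97 on water arrays 3 to 5. The level was thus higher on the 2 water arrays that also had the highest mean log2 level of choroid plexus markers, and the part of choroid plexus in it was not tested.

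Lists tied to fasting and stress gave few calls. Of 31 genes of sterol and fatty acid synthesis, 17 were above 0 on the 7 arrays (median 0.025), with 1 that rose, where 0.165% of all genes did. That gene was Idi1, an enzyme that isomerizes isoprenoid units on the way to cholesterol, at 0.83 (SE 0.14, adjusted p = 0.0449) on the 7 arrays and 0.33 (SE 0.22) on all 10. Fads1, a fatty acid desaturase, was at 0.55 (SE 0.14, adjusted p = 0.0896) on the 7 arrays. Of 38 genes of lipid use in fasting, 15 were above 0 in each comparison (medians -0.044 and -0.035), and of 29 glucocorticoid response genes 9 and 10 (medians -0.11 and -0.096), with 0 passing. Sgk1, a kinase induced by glucocorticoids and by high tonicity, was at 0.38 (SE 0.12) on the 7 arrays and 0.13 (SE 0.22) on all 10, and Fkbp5, another glucocorticoid target, at -0.13 (SE 0.14) and 0.047 (SE 0.21). The other tested Fkbp5 probe set gave -0.12 and -0.34. Txnip, a glucose-responsive regulator of redox state, was at -0.66 (SE 0.17, adjusted p = 0.0931) and -0.40 (SE 0.16).

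Secretory pathway genes leaned higher on the 7 arrays, where 22 of 28 genes of the endoplasmic reticulum stress list were above 0 (median 0.13), against 15 on all 10 (median 0.03). Sec61b, part of the translocon, was at 0.58 (SE 0.13, adjusted p = 0.0796) on the 7 arrays and 0.39 (SE 0.12) on all 10, and Dnajc3, a chaperone, at 0.72 (SE 0.21) and 0.50 (SE 0.18). None of the list passed, in either comparison. Of 39 proteasome genes 25 were above 0 on the 7 arrays and 22 on all 10, and of 26 heat shock genes 16 and 13. Ribosomal protein genes gave 27 of 40 above 0 on the 7 arrays (median 0.03, from -0.071 to 0.033 across 8 settings) and 7 of 40 on all 10 (median -0.11).

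**Figure D4:**
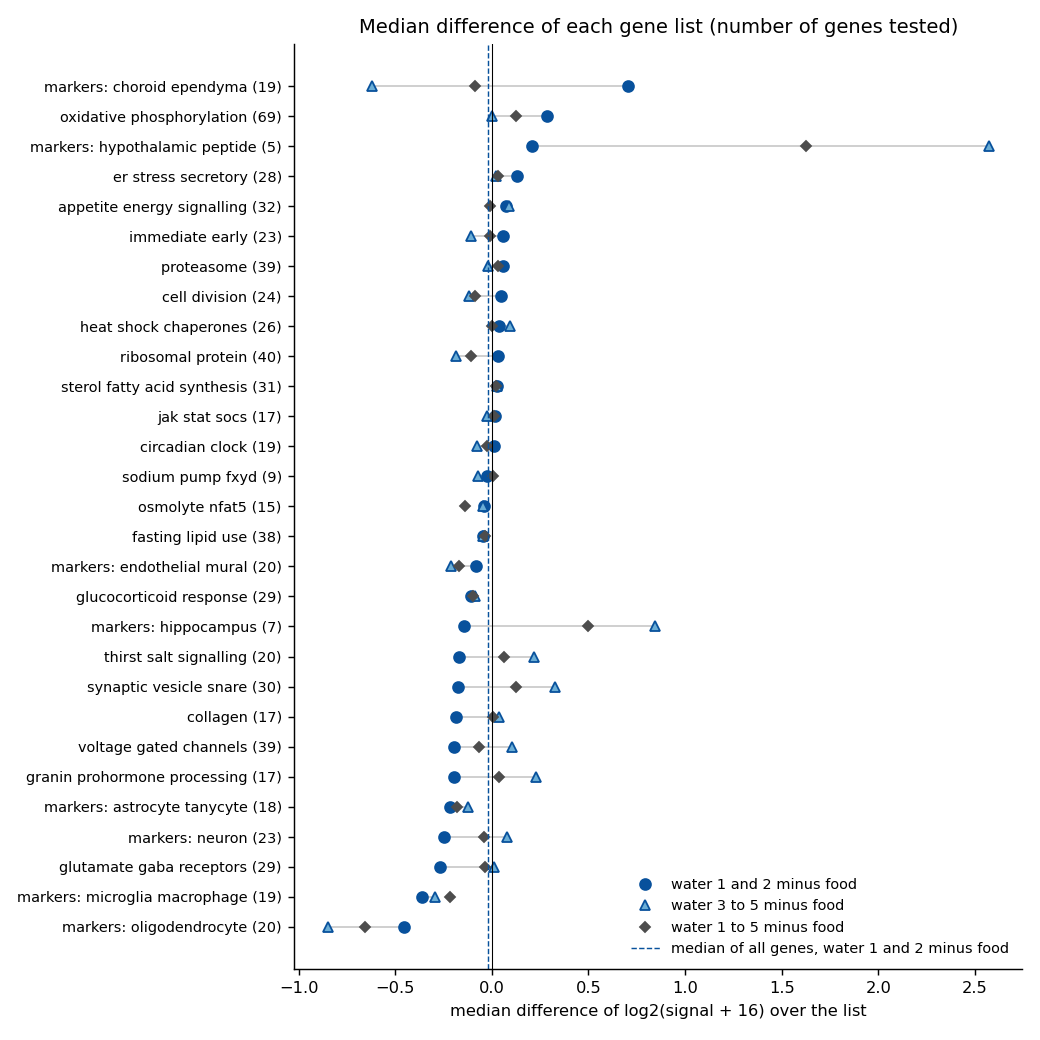
Median difference of log2(signal + 16), water minus food, over each gene list, for water arrays 1 and 2 (circles), water arrays 3 to 5 (triangles) and all 5 water arrays (diamonds) against the 5 food arrays, with the number of genes tested in brackets. Choroid plexus markers have a median of 0.70 with water arrays 1 and 2 and -0.62 with water arrays 3 to 5, and oligodendrocyte markers lie below 0 with each set. Hypothalamic peptides have the largest medians, 2.57 with water arrays 3 to 5 and 1.63 with all 5, and hippocampal markers stand at 0.84 and 0.50. With water arrays 1 and 2, microglial markers stand at -0.36 and oxidative phosphorylation genes at 0.29.

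Levels in the controls give a reference for the leading genes, although the 5′/3′ ratios of the controls were all below those of the food arrays. Vgf ran from 7.02 to 8.25 in the controls and overlapped both groups. Bdnf ran from 4.35 to 6.74, covering the food range and staying just below the lowest water array. Cartpt ran from 6.88 to 7.71, above every food array and overlapping the water arrays. Bpifa1 (5.01 to 5.49), Crem (7.05 to 7.60) and Grp (4.66 to 5.37) stayed below every water array and overlapped the food arrays. Treatment and array quality cannot be told apart between the controls and the food arrays.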

How the data were processed

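Subfornical organ RNA was amplified with MessageAmp II, per the labels' protocols, and hybridised to 1 array per pool of animals. The values are signal intensity on a linear scale, deposited by the authors as a table of 31099 probe sets, 57 of them array controls. The software named in the submitters' processing notes is GCOS 1.2. The deposited columns share a trimmed mean, and no other normalization was applied. A column of the deposited table was matched to its sample by label.

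Signals were taken as log2(signal + 16), filtered at the 30th percentile of the mean over the 10 arrays, and fitted with limma 3.58.1 in R 4.3.3 (lmFit, then eBayes with a variance trend), with Benjamini-Hochberg adjustment over all 21729 probe sets tested. The 10-array fit has 8 residual degrees of freedom and the 7-array fit 5. The number of arrays limits the precision. P-values measure the spread between pools. In the 7-array fit this is mostly the spread between food pools, since only 2 water pools enter.

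Of the probe sets, 20826 had 1 gene symbol in the platform annotation, 436 several and 9780 none, and 20758 of the first were matched to RefSeq. A gene was represented by its brightest single-symbol probe set. Named genes are, in each direction, up to 10 past the 10-array test with no overlap between groups (0 passed), up to 12 past the 7-array test with no overlap and the largest differences, and up to 10 past both; up to 3 members of each gene list with the smallest unadjusted p on the 7 arrays, if under 0.05; and a list of 25 genes of fluid and energy balance. Genes named for other reasons are marked as chosen after their values were seen, which also holds for Spats2l, Id4, Aplnr, Apln, Ttr, Scg2, Ndufb6, Cx3cr1 and Laptm5. The comparison, gene lists and array subset were chosen with earlier results of these data known, so counts over lists describe and do not test. Alternatives covered normalization, offset, filter, variance trend, array weights, covariates and the arrays in the fit. Figures were drawn with matplotlib 3.10.9.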

Additional observations from a re-analysis of the deposited data

Results flagged for a closer look

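In groups of 5 arrays, a value was singled out where its gap to the nearest other array exceeded 0.71 of the group's range. This picked 17 of 252 groups of named genes, and chance alone gives about 1 in 20. All values are log2(signal + 16), and no explanation was tested.

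Water array 3, with the lowest 5′/3′ ratio of the 10 arrays, gave 7 of them. It was high for Ier5 at 8.377, Nrgn at 10.7 and Fkbp5 at 7.718, and it stood apart for Sgk1 at 8.773, Slc12a2 at 8.741, Psme4 at 7.171 and Bhlhe41 at 9.18. Elsewhere in the water group, water array 4 stood apart for Ccnd2 at 8.382 and water array 1 for Galr2 at 5.569.

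In the food group, food array 1 stood apart for Ddx25 at 7.802, Ramp2 at 8.019 and Dusp1 at 7.445. Food array 2 did so for Man2a1 at 7.301, Crym at 8.283 and Syp at 8.591, food array 3 for Pmch at 4.596, and food array 4 for St3gal6 at 6.973.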

How the results depend on the processing

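Counts are probe sets called higher and lower. With 10 arrays (0 and 0 as reported), quantile normalization or median centring gave 6 and 0, no filter 0 and 1, array weights 704 and 1391, all 15 arrays in the fit 60 and 15, the 5′/3′ ratio as a covariate 26 and 15, the choroid plexus level as a covariate 304 and 323, leaving out water arrays 1 and 2 1371 and 2744, and leaving out water arrays 1 to 3 1184 and 2117. Leaving out 1 array gave 0 to 156 higher and 0 to 294 lower. With 7 arrays (32 and 54), an offset of 64 gave 57 higher, no filter 9 and 7, no variance trend 8 and 10, array weights 21 and 34, the choroid plexus level 9 and 20, a term for array set over 10 arrays 0 and 1 and over 15 arrays 0 and 0. Leaving out 1 array gave 0 to 50 higher and 1 to 109 lower. Both comparisons called 0 probe sets in the same direction, against 2 with quantile normalization, 2 with median centring and 10 with array weights. All 86 calls kept their sign wherever they were tested, but each of these fits sets water arrays 1 and 2, together or singly, against food. In water arrays 3 to 5 minus food, 17 of the higher calls and 26 of the lower calls had the opposite sign. The causes were not tested.

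The water and food arrays share replicate numbers, and the labels do not say whether these pair them. Deviations of same-numbered arrays correlated from -0.157 to 0.171. That does not settle the pairing, because RNA quality is split within the water group. With a replicate block the 10 arrays gave 21 higher and 0 lower, and the 7 arrays 0 and 0.

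On 10 arrays some differences changed sign. C8h15orf39 was at 0.57 without water arrays 1 and 2 and 0.59 without water arrays 1 to 3, and Plin2 at 0.24 without water arrays 1 and 2. With the 5′/3′ ratio as a covariate Cnih2 was at -0.64, Slc12a2 at 0.48, Cacnb3 at -0.43, Syn2 at -0.53, Kl at 0.95 and Nrgn at -0.62. The choroid plexus covariate and leaving out water arrays 1 and 2 or 1 to 3 were chosen after seeing the data.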
